A study of Mus musculus with 2 samples.

Results

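The genes described here are the 4 Notch receptors (Notch1, Notch2, Notch3 and Notch4), their 5 canonical ligands (Dll1, Dll3, Dll4, Jag1 and Jag2) and Hes1, a transcriptional repressor that the pathway switches on. They were taken by symbol, and all 10 were found among the 43346 genes of the tables. The RNA came from whole stomachs of Mus musculus embryos of strain B6NCrl at 14.5 days of gestation (E14.5), with 1 stomach of a separate embryo in each of 2 libraries. The labels give no genetic change, no treatment and no other stage, so the series holds 1 group and no condition could be compared. The sex is labelled pooled male and female, although each library is labelled as 1 stomach. The stomachs were collected on different days, so embryo and day cannot be told apart. Libraries were made from 10 ng of total RNA longer than 200 nt, with spike-in RNAs added.

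In Notch signalling a ligand on one cell binds a receptor on its neighbour. ADAM proteases and then gamma-secretase cut the receptor, and the freed intracellular part enters the nucleus, where it joins the DNA-binding protein RBPJ and a Mastermind coactivator to turn on Hes and Hey repressors. In the gut the pathway is known for holding progenitors back from endocrine and secretory fates, and in vessels for arterial and mural cell identity. Whole-organ RNA mixes all of these cells, and in such bulk samples fewer cells of a type and less RNA per cell cannot be told apart.

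The tables held 23668322 expected counts on genes in replicate 1 and 23882647 in replicate 2. An expected count is an estimated number of reads, and TPM, a relative abundance, divides it by the gene's effective length and scales each table to a fixed total. All 8 markers chosen for stomach endoderm and mesenchyme were detected, meaning a TPM of 1 or more in both libraries, among them Sox2 (8.18 and 7.63 TPM in replicates 1 and 2) and Barx1 (108 and 94.5 TPM). Every marker on the lists for epithelium (6), smooth muscle (5), endothelium (8), arterial endothelium (6), mural cells (6) and enteric neural crest (6) was detected too. Markers of pancreas stood apart between the libraries. All 9 were lower in replicate 2, with a summed level of 756 TPM in replicate 1 and 47.0 TPM in replicate 2. Among them Ptf1a gave 99 counts in replicate 1 and 0 in the other library (a count of 0 allows up to 3 counts). As a ratio the gap was smallest for Nkx6-1 (73 and 49 counts) and Pdx1 (154 and 103 counts), beside Cpa1 (2203 and 30 counts). Of markers of other organs and cells, 4 of 4 for liver, 4 of 4 for macrophages and 1 of 2 for spleen were detected. The detected gene of the spleen list was Nkx2-5 (148 and 121 counts in replicates 1 and 2), while Tlx1 had 16 and 3 counts. The 2 genes thus did not settle whether spleen was present. The liver markers Alb (44 and 122 counts in replicates 1 and 2) and Afp (161 and 238 counts) were higher in replicate 2. Apoa1 (865 and 862 counts) and Ttr (349 and 307 counts) were not. Of the lung markers, 0 of 3 were, with Nkx2-1 at 0 counts in both libraries.

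All 10 genes were detected in both libraries. The same threshold was passed by 61.8% of protein coding genes and by 34.9% of all genes. The median of the 10 means was 12.6 TPM, below the median of 18.4 TPM over the 13271 protein coding genes detected. By deposited TPM the levels thus ran from among the higher-ranked genes, for Hes1, to the lower ranks of the detected genes, for Notch4 and Dll3. Gene positions below are from GENCODE M21 on mm10, the build that the deposited tables name.

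Among the receptors, Notch2 and Notch1 stood highest and Notch4 lowest in both libraries. Notch2 (ENSMUSG00000027878.10, chromosome 3, 98013527 to 98150361, plus strand), a broadly expressed receptor, was at 27.9 TPM in replicate 1 and 26.0 TPM in replicate 2, or 26.9 ± 1.39 TPM (SD, n = 2). Notch1 (ENSMUSG00000026923.11, chromosome 2, 26457903 to 26516663, minus strand), the receptor known for its role in gut progenitors and in T cells, was at 23.9 and 21.7 TPM, or 22.8 ± 1.51 TPM (SD, n = 2). The 2 ranges did not overlap, and Notch2 was 1.17 times and 1.19 times as high as Notch1 in replicates 1 and 2. Notch3 (ENSMUSG00000038146.7, chromosome 17, 32120820 to 32166852, minus strand), known for its role in vascular smooth muscle and pericytes, was at 14.6 and 15.7 TPM, or 15.2 ± 0.792 TPM (SD, n = 2). Notch4 (ENSMUSG00000015468.10, chromosome 17, 34564268 to 34588503, plus strand), an endothelial receptor, was at 3.47 and 2.86 TPM, or 3.17 ± 0.431 TPM (SD, n = 2). Notch3 was thus 4.21 times as high as Notch4 in replicate 1 and 5.50 times in replicate 2. The size of this gap depended on the measure. It was 2.43 and 2.88 times by the posterior mean TPM, a smoothed estimate in the same tables that put Notch4 at 5.83 and 5.30 TPM, and 6.86 and 6.93 times by coding transcripts only. As shares of the summed receptor TPM, Notch2 held 39.6% ± 0.561, Notch1 33.5% ± 0.974, Notch3 22.3% ± 2.00 and Notch4 4.64% ± 0.460 (SD, n = 2). By the posterior mean TPM, Notch1 held 36.6%, Notch2 35.6%, Notch3 20.1% and Notch4 7.6%, so the order of the leading pair turned.

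Jag1 led the ligands and Dll1 came next. Jag1 (ENSMUSG00000027276.7, chromosome 2, 137081456 to 137116644, minus strand), the Jagged ligand known from vessels and the bile ducts, was at 18.0 TPM in replicate 1 and 14.9 TPM in replicate 2, or 16.5 ± 2.21 TPM (SD, n = 2). Dll1 (ENSMUSG00000014773.9, chromosome 17, 15367354 to 15376872, minus strand), a Delta-like ligand of somites, neural and gut progenitors, was at 9.87 and 10.01 TPM, or 9.94 ± 0.099 TPM (SD, n = 2). Jag1 was higher than Dll1 in both libraries, 1.82 times in replicate 1 and 1.49 times in replicate 2.

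The remaining ligands lay close together. Dll4 (ENSMUSG00000027314.6, chromosome 2, 119325784 to 119335962, plus strand), the Delta-like ligand of arteries and sprouting vessel tips, was at 5.25 and 4.11 TPM, or 4.68 ± 0.806 TPM (SD, n = 2). Jag2 (ENSMUSG00000002799.5, chromosome 12, 112907819 to 112929776, minus strand), the other Jagged ligand, was at 4.17 and 4.21 TPM, or 4.19 ± 0.028 TPM (SD, n = 2). Dll3 (ENSMUSG00000003436.11, chromosome 7, 28293553 to 28302238, minus strand), a divergent Delta-like protein that acts mainly inside the cell as an inhibitor, was at 3.60 and 2.84 TPM, or 3.22 ± 0.537 TPM (SD, n = 2). Dll4 and Jag2 overlapped in range. Of the summed ligand TPM, Jag1 held 42.7% ± 1.94, Dll1 25.9% ± 2.56, Dll4 12.1% ± 1.02, Jag2 10.9% ± 1.05 and Dll3 8.34% ± 0.655 (SD, n = 2). The receptors summed to 69.9 and 66.3 TPM and the ligands to 40.9 and 36.1 TPM, so the receptor sum was 1.71 and 1.84 times the ligand sum.

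Hes1 was the highest of the 10. Hes1 (ENSMUSG00000022528.7, chromosome 16, 30064384 to 30067796, plus strand) encodes the basic helix-loop-helix repressor that receptor cleavage induces in many tissues. Its level was 57.8 TPM in replicate 1 and 54.6 TPM in replicate 2, or 56.2 ± 2.25 TPM (SD, n = 2), which was rank 2586 among the 21474 protein coding genes. Notch2, next in order, was at rank 5074, and Notch4, lowest of the 10 by this measure, at rank 11743. From the top the order by deposited TPM was Hes1, Notch2, Notch1, Jag1, Notch3, Dll1, Dll4, Jag2, Dll3 and Notch4. Neighbours in this order that overlapped in range were Jag1 and Notch3, Dll4 and Jag2, and Dll3 and Notch4, and the other neighbours had ranges apart. By the posterior mean TPM, Notch1 stood above Notch2 with overlapping ranges, and Notch4, with a mean of 5.57 TPM, moved above Dll4 (4.8 TPM), Jag2 (4.07 TPM) and Dll3 (3.52 TPM). The ranges of Notch4 and Dll4 overlapped, and Dll3 was then lowest. With 2 libraries of 1 group, likeness to other genes across samples was not computed.

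**Figure D1:**
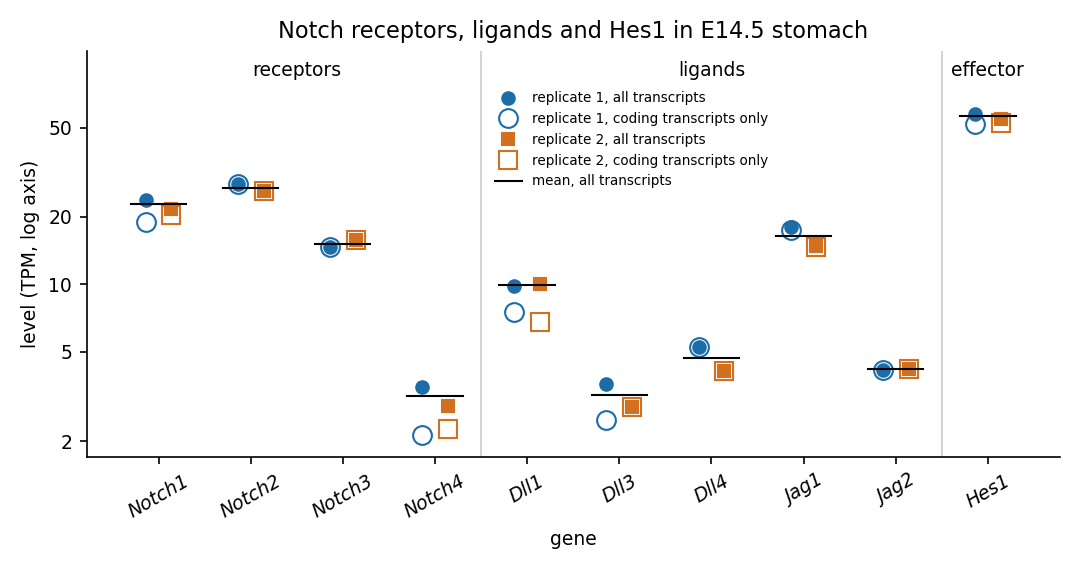
Level of each gene in TPM on a log axis, by role. Filled points are the deposited TPM of all transcripts in replicate 1 (circles) and replicate 2 (squares), open points count coding transcripts only, and the line is the mean of the filled points. Hes1 is highest near 56.2 TPM. The open points of Notch1, Notch4, Dll1, Hes1 and, slightly, Jag1 lie below the filled ones in both libraries. Those of Dll3 do so in replicate 1 only (2.48 against 3.60 TPM).

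The genes differed in how much of their TPM came from the full-length coding transcript. Of the 10, 3 (Notch2, Notch3 and Jag2) had a single transcript in the tables, and 7 had more. Coding transcripts of Dll4 held 100% of the gene in both libraries by deposited TPM, and 93.5% on average by the posterior mean. The main coding transcript of Jag1, with 26 exons, held 97.4% and 98.2%, and that of Hes1, with 4 exons, 90.2% and 95.8%. In these genes short non-coding forms took little. Notch1, Notch4, Dll1 and Dll3 differed from them in at least 1 library.

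In Dll1, the 11-exon coding transcript held 76.6% of TPM in replicate 1 and 67.9% in replicate 2. The rest, 23.4% and 32.1%, was assigned to ENSMUST00000140784.1, a fragment of 751 nt annotated as a retained intron. In expected counts the same fragment took 25.4 of 469 in replicate 1 and 37.5 of 461 in replicate 2. Its share of counts, 5.42% and 8.14%, was far smaller because TPM divides by its short length. The posterior SD of the fragment's deposited count was 5.56 counts in replicate 1 and 6.72 in replicate 2. This SD is the uncertainty from reads that fit several transcripts. The only bases of this fragment that lie outside the exons of the coding transcript are the 98 bases of intron 10, the final intron.

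By deposited TPM, Dll3 had the same arrangement in replicate 1 only. Its 9-exon coding transcript held 68.9% of TPM in replicate 1 and 100% in replicate 2, and ENSMUST00000138721.1, a retained-intron fragment of 665 nt, held 31.1% and 0%. That share rested on 10.7 expected counts in replicate 1 against 0 in replicate 2, where up to 3 counts are allowed. The posterior SD of this Dll3 fragment's deposited count was 3.08 counts in replicate 1. As in Dll1, the only extra bases were those of the final intron, here intron 8, with 114 bases.

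Both final introns are shown because they are the only stretches that set the retained-intron fragments apart from the coding transcripts. Capitals mark the intron, lower case before it the last 40 coding bases of the preceding exon, and lower case after it the 3 coding bases that open the final exon. They were read 5′ to 3′ from GENCODE M21 transcripts on mm10, minus strand, at chr17:15368033-15368173 for Dll1 and chr7:28293924-28294080 for Dll3.
Dll1 final intron: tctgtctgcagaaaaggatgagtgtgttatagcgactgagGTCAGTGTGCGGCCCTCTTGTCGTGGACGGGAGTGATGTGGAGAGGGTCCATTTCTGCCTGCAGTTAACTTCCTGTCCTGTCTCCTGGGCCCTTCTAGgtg
Dll3 final intron: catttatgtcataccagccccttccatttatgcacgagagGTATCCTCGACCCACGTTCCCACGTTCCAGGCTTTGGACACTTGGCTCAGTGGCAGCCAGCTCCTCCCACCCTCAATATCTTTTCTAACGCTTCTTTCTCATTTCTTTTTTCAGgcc
The introns begin with GT and end with AG, the usual splice-site bases, and hold 58.2% (Dll1) and 50% (Dll3) G and C. In both genes the final exon therefore carries only 3 coding bases before the stop codon.

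**Figure D2:**
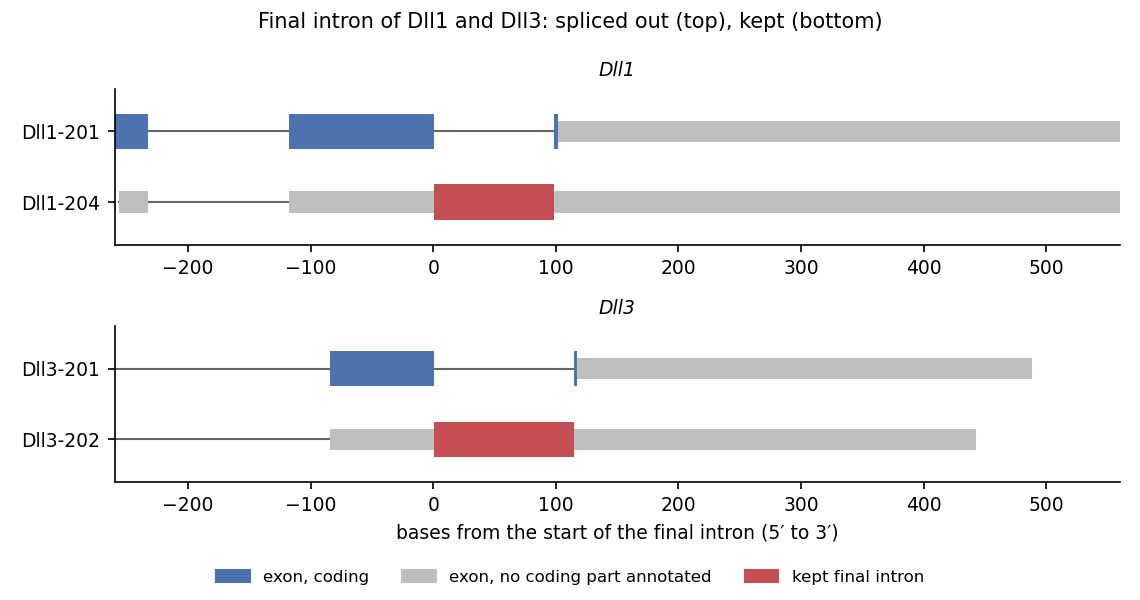
Ends of Dll1 and Dll3 in bases from the start of the final intron, with the coding transcript above and the retained-intron fragment below. Thick blue boxes are coding exon parts, grey boxes exon with no coding part annotated, and red the kept intron of 98 bases in Dll1 and 114 bases in Dll3.

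Among the receptors the split of transcripts mattered for Notch1 and Notch4. The 34-exon coding transcript of Notch1 held 79.2% of TPM in replicate 1 and 93.3% in replicate 2, but 97.7% and 98.8% of the expected counts. The 30-exon coding transcript of Notch4 held 61.6% and 79.5% of TPM and 96.1% and 96.7% of counts. Its mean share of TPM, 70.6%, was 37.1% by the posterior mean. That measure also lowered the mean share of the main coding transcript in other genes. It went from 86.2% to 70.6% in Notch1, from 72.2% to 63.2% in Dll1 and from 84.4% to 73.05% in Dll3. Of the other Notch4 forms, the non-coding ENSMUST00000156724.1 (619 nt) averaged 15.7% ± 4.92 of TPM (SD, n = 2) on 3.73 and 5.11 counts. Shares of counts outside the main transcript were thus smaller than shares of TPM in Notch1, Notch4 and Dll1 in both libraries and in Dll3 in replicate 1, while Dll3 in replicate 2 had 0 counts there. Counting coding transcripts only, Notch1 was at 18.9 and 20.3 TPM, Notch4 at 2.13 and 2.27 TPM, Dll1 at 7.56 and 6.80 TPM and Dll3 at 2.48 and 2.84 TPM. The order of the 10 genes was that of the deposited TPM on this scale, and Dll3 and Notch4 no longer overlapped.

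**Figure D3:**
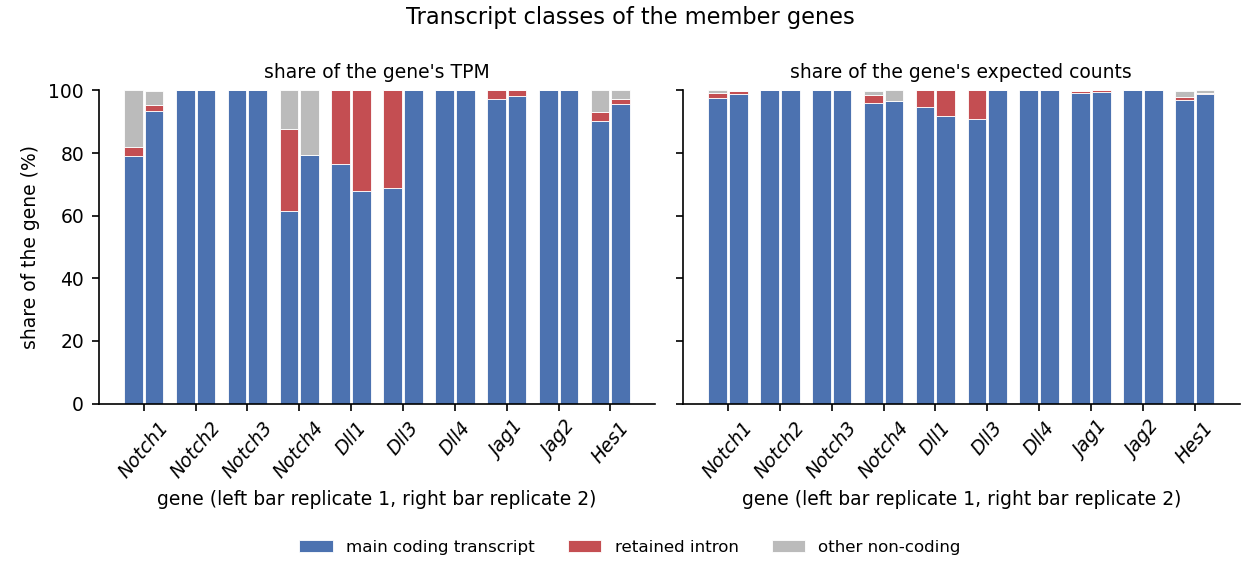
Share of each gene, in percent, held by its main coding transcript (blue), retained-intron forms (red) and other non-coding forms (grey), by TPM on the left and by expected counts on the right. The left bar of each pair is replicate 1 and the right bar replicate 2, and for Dll3 in replicate 1 the red part is 31.1% of TPM but 9.22% of counts.

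Between the embryos, none of the 10 genes differed over 2-fold. Ratios are log2 of replicate 2 over replicate 1 from expected counts, scaled with edgeR's TMM library sizes, and with 1 library on each side they carry no p-value. Of the 12761 genes whose mean count reached 100, which include all 10, 38 (0.298%) lay over 2-fold apart. The median size of the ratio, sign ignored, was 0.13 for the 10 genes and 0.10 for all 12761. The 10 genes ranged from -0.29 to 0.17, and 95% of all genes lay within 0.38 of 0.

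Intervals for counting error alone left out a ratio of 1 for 4 of the 10 genes, beside 34.9% of all genes tested, so this share was near the background. Counts of Notch3 were 1958 and 2238 in replicates 1 and 2, a log2 ratio of 0.17 (95% counting interval 0.08 to 0.26). For Notch1 the counts were 3062 and 3450, a log2 ratio of 0.15 (0.08 to 0.22). Both receptors were thus higher in replicate 2, within the 0.38 that held 95% of all genes. Jag1 had 1641 and 1449 counts, a log2 ratio of -0.20 (-0.30 to -0.10). For Dll4 the counts were 323 and 268, a log2 ratio of -0.29 (-0.53 to -0.05). The ligands Jag1 and Dll4 were lower in replicate 2. When spike-in counts set the library sizes, every ratio moved by -0.27, and 0 of the 10 were then higher in replicate 2 and 7 lower by their intervals, beside 0.690% and 77.7% of all genes. The 6 genes with a ratio above 0 all fell below 0 under that scaling. They were Notch1 (-0.12), Notch3 (-0.10), Notch4 (-0.12), Dll3 (-0.15), Jag2 (-0.19) and Hes1 (-0.22).

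The counts of the other 6 genes gave intervals that held a ratio of 1. Hes1 had 1237 and 1295 counts, a log2 ratio of 0.04 (-0.07 to 0.16), and Notch2 had 4898 and 4835 counts, a log2 ratio of -0.04 (-0.10 to 0.02). These well-counted genes had narrow intervals close to 0. Dll3, the least counted, had 116 and 128 counts, and its interval of -0.25 to 0.50 would hide a difference of that size. Notch4 (243 and 273 counts), Dll1 (469 and 461 counts) and Jag2 (278 and 298 counts) had log2 ratios of 0.15, -0.05 and 0.08.

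The sign of the ratio depended on the unit for 5 of the 10 genes. In Notch1, Notch4, Dll1, Dll3 and Hes1 the ratio of counts and the ratio of TPM had opposite signs. The same was true of 19.6% of all genes tested. Notch1 was 0.15 by counts and -0.14 by TPM, Notch4 0.15 and -0.28, and Dll3 0.12 and -0.34, all on the log2 scale. These 3 ratios were above 0 by counts and below 0 by TPM. The counting intervals of Notch4 (-0.11 to 0.40) and Dll3 (-0.25 to 0.50) held a ratio of 1, so only Notch1 was higher by its interval. Dll1 (-0.05 by counts and 0.02 by TPM) and Hes1 (0.04 and -0.08) changed sign close to 0. Over all 12761 genes the median ratio was -0.01 by counts and -0.07 by TPM. Notch1, Notch4 and Dll3 were also the 3 genes of the 10 whose effective length was over 1.1-fold apart between the libraries, beside 9.51% of all genes. Effective length is the length TPM divides by. In replicate 2 that length was 116.5% of its value in replicate 1 for Notch1, 128.5% for Notch4 and 131.8% for Dll3. By TPM of coding transcripts only, the ratio was 0.10 for Notch1, 0.09 for Notch4 and 0.20 for Dll3. On that scale, chosen after the data were seen, all 10 genes had the sign that their counts gave. Of all genes with coding transcripts, 20.8% had opposite signs. In each of the 10 the main coding transcript held 90.8% or more of the counts in both libraries. Both measures thus rest on nearly the same reads, and their agreement is no separate support.

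**Figure D4:**
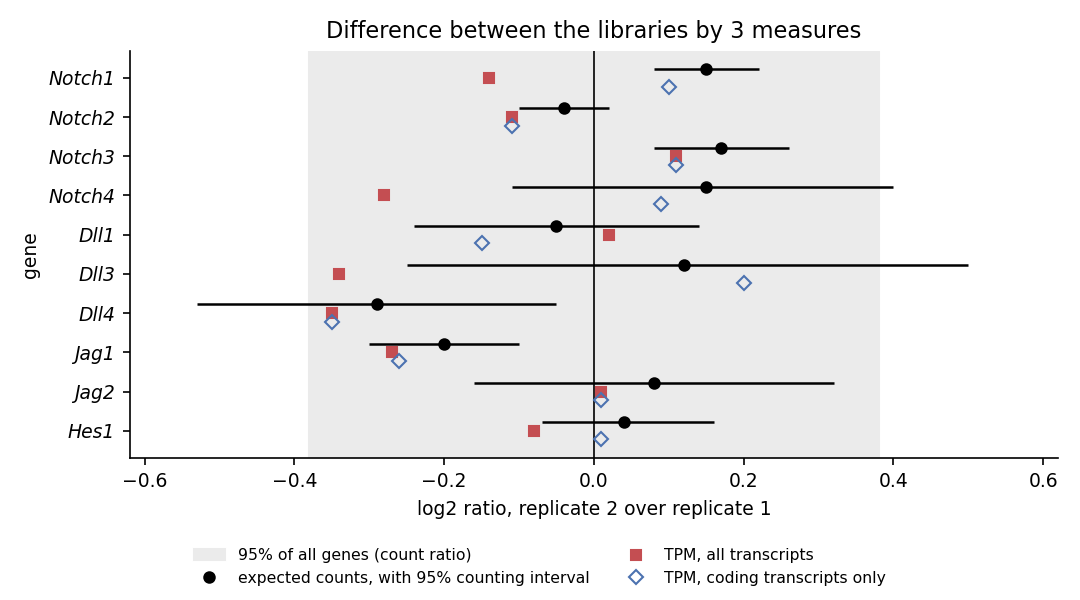
Log2 ratio of replicate 2 over replicate 1 for each gene. Black circles with lines are expected counts with their 95% counting interval, red squares the deposited TPM, open diamonds the TPM of coding transcripts, and the grey band spans the count ratios of 95% of all genes, 0.38 on each side of 0. Notch1, Notch4 and Dll3 have circles right of 0 and squares left of it.

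Reads of genes that overlap a member were few beside those of the member, least so for Dll4. Counting by strand is not stated, so reads from a gene and from one on the opposite strand cannot be told apart. Dll4 overlaps Gm14207, a processed transcript on the opposite strand, over 411 bases, and Gm14207 had 45 counts in replicate 1 and 22 in replicate 2. Dll4 itself had 323 and 268 counts, and the part of Gm14207 in the ratio of Dll4 was not tested. Notch1 overlaps Gm13568 over 414 bases (90.3 and 86.5 counts) and 0610009E02Rik over 1488 bases (23.2 and 15.0 counts), both on the opposite strand. Gm17276, antisense to Notch3, had 6.61 and 10.8 counts, and A930024N18Rik, opposite Dll1, 7.80 and 8.94. The deposited posterior SD was 0 counts for 6 of the 10 genes in both libraries, and at most 9.12 counts (Notch1, replicate 1) for the others. The Jag2 transcript was 4054 nt long in the tables and 5106 nt in GENCODE M21, so its TPM rests on a shorter model than the later annotation gives.

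The rest of the pathway had a median level of 12.7 TPM over 63 genes, beside 12.6 TPM for the 10 genes. Of the 63, 54 were detected, beside 61.8% of all protein coding genes. Of the 52 whose mean count reached 100, 0 lay over 2-fold apart, beside 0.298% of all genes tested. That count leaves out Rbpjl and Neurog3, described below. Their median log2 ratio was -0.01, the same as over all 12761 genes. All 10 genes of receptor cleavage were detected, highest the gamma-secretase subunits Ncstn (107 and 103 TPM) and Psenen (83.8 and 86.6 TPM), which help assemble the complex that frees the intracellular domain. All 6 genes of receptor glycosylation were detected too, led by the O-glucosyltransferase Poglut1 (44.7 and 41.9 TPM) and the Fringe enzyme Rfng (22.5 and 20.5 TPM). It is the Fringe enzymes that shift which ligands a receptor prefers. The 4 ubiquitin ligases that drive ligand uptake were led by Mib1 (23.6 and 20.9 TPM) and Mib2 (16.5 and 13.9 TPM).

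Nuclear partners and restraints were detected with a single exception. Of 9 genes of the nuclear complex, 8 were detected, led by Snw1 (87.7 and 82.2 TPM) and the acetyltransferase Kat2a (39.4 and 37.4 TPM). Rbpj, the DNA-binding partner, was at 31.7 and 29.5 TPM. The exception was Rbpjl, a relative of Rbpj that works with Ptf1a in pancreatic acinar cells. Counts of Rbpjl were 192 and 6 in replicates 1 and 2 (4.98 and 0.10 TPM), a log2 ratio of -4.91 (95% counting interval -6.49 to -3.87). The pancreas markers moved with it, all 9 lower in replicate 2, and their part in this result was not tested. All 9 genes listed with the corepressors of RBPJ and of Hes factors were detected. Highest were Aes (252 and 220 TPM), a Groucho relative whose action as a corepressor was not tested, and Ncor1 (111 and 92.6 TPM). The 10 genes of restraint and turnover were all detected, with Dtx3 (93.3 and 91.8 TPM) and the ubiquitin ligase Itch (43.5 and 44.7 TPM) highest.

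**Figure D5:**
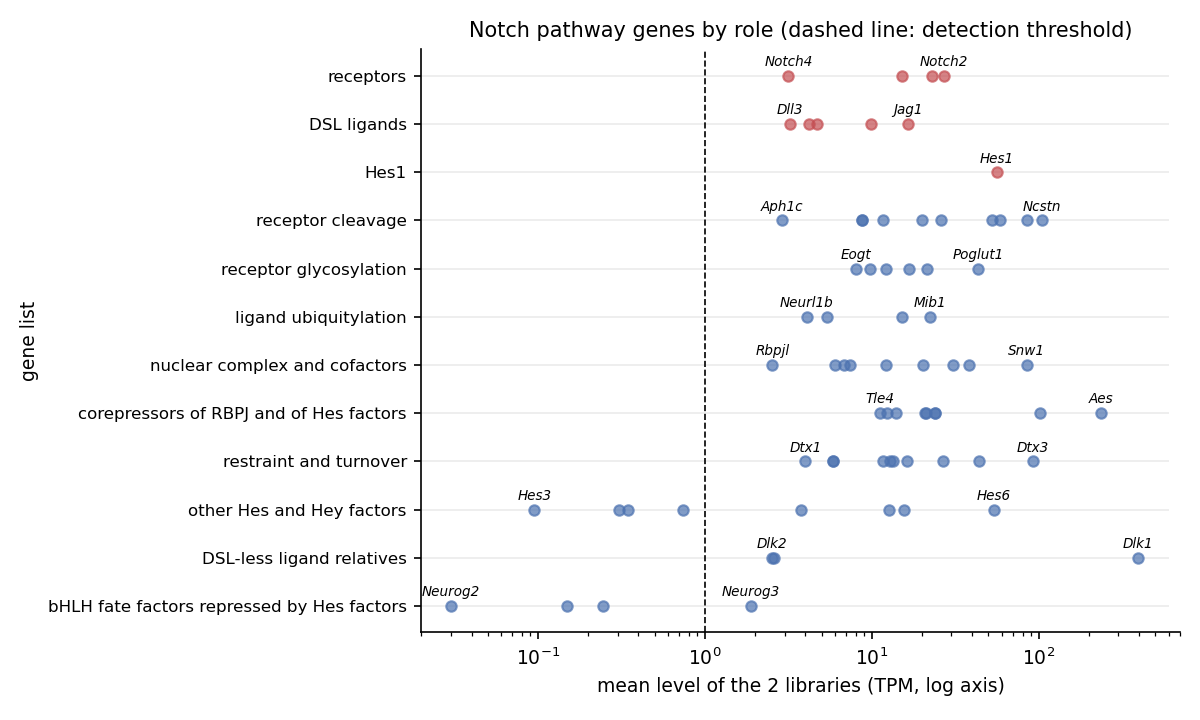
Mean level of the 2 libraries in TPM on a log axis, 1 point per gene and 1 row per list, with the receptors, ligands and Hes1 in red. The dashed line is 1 TPM, and names mark the lowest and highest gene of each row. Rbpjl, at 4.98 and 0.10 TPM, and Neurog3, at 3.33 and 0.43 TPM, have means above the line but were under it in replicate 2.

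Of the 8 other Hes and Hey factors, 4 were detected. Hes6, which is known to oppose Hes1, was at 59.4 TPM in replicate 1 and 48.5 TPM in replicate 2, so Hes1 was 0.97 times its level in replicate 1 and 1.13 times in replicate 2, and the order of the 2 was not settled. Heyl, known from mural cells and smooth muscle, was at 16.1 and 15.1 TPM, and Hes1 stood 3.59 and 3.62 times above it. Hey1 and Hey2, the Hey factors of arteries and heart, were at 11.9 and 13.4 TPM and at 3.49 and 4.01 TPM. Hes2, Hes3, Hes5 and Hes7 were under 1 TPM in both libraries. Hes5, a main Notch effector of neural progenitors, had 16 and 14 counts (0.81 and 0.67 TPM), Hes2 9 and 11 counts, Hes7 8.55 and 12 counts, and Hes3 0 and 6 counts.

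Promoter sequences of Hes5 and Hey2 are shown to set a gene under the threshold beside a detected one. The letters GTGGGAA, the core that RBPJ is known to bind, were searched with their other-strand form TTCCCAC in the 250 bases before each RefSeq start (GRCm38.p6, the assembly of mm10). Of 32851 such windows, 5.42% held them. Capitals mark the matches in the windows of Hes5 at chr4:154960673-154960922, plus strand, and Hey2 at chr10:30842802-30843033, minus strand, the latter without bases that GENCODE M21 puts in its first exon.
Hes5: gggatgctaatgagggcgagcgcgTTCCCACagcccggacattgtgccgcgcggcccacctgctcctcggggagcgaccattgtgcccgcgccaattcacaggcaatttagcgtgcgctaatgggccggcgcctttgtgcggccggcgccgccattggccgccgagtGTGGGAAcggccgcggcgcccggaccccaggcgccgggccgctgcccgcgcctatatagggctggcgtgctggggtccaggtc
Hey2: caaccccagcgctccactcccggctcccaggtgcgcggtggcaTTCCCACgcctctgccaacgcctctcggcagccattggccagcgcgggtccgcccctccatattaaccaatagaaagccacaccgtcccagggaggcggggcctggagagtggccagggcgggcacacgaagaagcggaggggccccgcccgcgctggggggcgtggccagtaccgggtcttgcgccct
Hes5 held 2 matches, which begin at -226 and -83 from its start, and Hey2 held 1, at -207. Hes7 held 1 match too, and the windows of Hes6 held 0. These 4 genes, with 5 windows, were those of the 8 other Hes and Hey factors that matched the promoter table. A match was thus seen beside a gene at 14 to 16 counts and beside one detected in both libraries. The windows of the receptors and ligands (10 windows of 9 genes) held 0 matches, and Hes1 was not matched in the promoter table.

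Of the ligand relatives that lack the receptor-binding DSL domain, Dlk1 stood far above the canonical ligands. Dlk1, an imprinted gene of fetal mesenchyme and progenitors, was at 427 TPM in replicate 1 and 359 TPM in replicate 2, which was 23.7 and 24.1 times the level of Jag1. Dner (2.53 and 2.63 TPM) and Dlk2 (2.95 and 2.10 TPM) were as low as the least of the canonical ligands.

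Of 4 basic helix-loop-helix fate factors that Hes proteins are known to repress, 0 reached 1 TPM in both libraries. Neurog3, the starter of endocrine fate, gave 80.9 and 11 counts in replicates 1 and 2 (3.33 and 0.43 TPM), a log2 ratio of -2.85 (95% counting interval -3.96 to -1.99). Neurod1, a factor downstream of Neurog3, had 19 and 3 counts, and Atoh1, the secretory fate factor of the intestine, 10 and 0 counts. Neurog2 had 1 count in each library. Neurog3, Neurod1 and Atoh1 were thus lower in replicate 2, as were the 9 pancreas markers, whose part in this was not tested. Over the same pair of libraries Hes1 had a log2 ratio of 0.04, and a link between Hes1 and these factors was not tested.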

How the data were processed

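Libraries from total RNA of 2 whole stomachs formed 1 group. The deposited notes name mm10 and GENCODE M4. The programs for alignment and counting were not given in the sources used here. The authors deposited expected counts (estimated reads, not normalized) and TPM, whose fixed total includes 96 spike-ins (12.1% of TPM in replicate 1, 14.2% in replicate 2), which lowers all genes a little more in replicate 2. In the deposited transcript tables, a percent column holds each form's part of the gene's TPM. Numbered entries without a gene name took 15.47 and 25.00 counts and stayed out of library sizes. Symbols came from GENCODE M21, which matched 42462 of 43346 genes.

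Ratios used TMM sizes (edgeR 4.0.16, R 4.3.3) with 0.5 added to each count. Intervals (95%, exact binomial on rounded counts, scipy 1.17.1) and floors (3 counts for a count of 0) cover counting error only, since PCR reads without molecular identifiers are not independent molecules. The ratio script was tested on simulated counts. Alternatives were DESeq2 1.42.0 size factors, spike-in scaling, other thresholds, posterior mean TPM, coding transcripts only and each library alone. Members and gene lists were chosen with earlier results of these data known, and 1 gene of the lists is not reported here. Named pathway genes are the 2 highest of each list and every gene under TPM 1 in either library, and Sox2, Barx1, Rbpj, Hey1, Hey2, Nrarp, Lfng, Neurl1b, Aph1a and Dlk2 were added after their values were seen. Transcripts at 10% or more of a gene on average are named.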

Additional observations from a re-analysis of the deposited data

How the results depend on the processing

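All 10 member genes and 54 of 63 pathway genes were detected. At a threshold of 5 TPM in both libraries 6 members remained, while thresholds of 0.5 and 2 TPM, posterior mean TPM and either library alone gave 10. Pathway genes numbered 48 to 56 over these settings, with 54 without replicate 1 and 56 without replicate 2. No member lay over 2-fold apart with TMM, DESeq2 or spike-in sizes, from TPM, or with other count filters, and none over 1.5-fold with TMM. The median log2 ratio of the members was 0.06, and -0.21 with spike-in scaling, -0.12 from TPM and 0.01 from TPM of coding transcripts, the last chosen after seeing the data. Notch1 turned from 0.15 to -0.12 with spike-in scaling and to -0.14 from TPM, and Notch3 from 0.17 to -0.10 with spike-in scaling. Notch4, Dll3, Jag2 and Hes1, whose counting intervals held a ratio of 1, also fell below 0 with spike-in scaling. Leaving out spike-ins and mitochondrial genes raised all 10 TPM values by more than their spread. That rescaling multiplies every gene of a library by the same factor, so the rise says nothing about these 10 genes. The cause of the sign changes was not tested beyond the shift that each scaling applies to every gene. No paired analysis was possible because the series has 1 group. With 116 and 128 counts for Dll3, 16 and 14 for Hes5 and fewer for Hes2, Hes3, Hes7, Atoh1 and Neurog2, depth leaves wide counting intervals for these genes. The posterior mean moved Notch4 from 3.17 to 5.57 TPM.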

Other observations

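Among the pathway genes other than Hes and Hey factors, 4 of 59 windows of 250 bases before a RefSeq start (6.78%) held the letters GTGGGAA or TTCCCAC, near the 5.42% of all promoters. They were those of Psen2, Lfng, Rbpjl and Spen. These windows were looked at after the values were seen. Lfng, a Fringe enzyme that modifies Notch receptors, was at 18.0 TPM in replicate 1 and 15.4 TPM in replicate 2, and Nrarp, a feedback inhibitor that Notch induces, at 6.36 and 5.40 TPM. Of the detected pathway genes, Neurl1b, a ligase for Notch ligands, had the highest ratio among the 52 genes whose mean count reached 100, with 326 and 448 counts in replicates 1 and 2, a log2 ratio of 0.44 (95% counting interval 0.23 to 0.65). The lowest was that of Aph1a, a gamma-secretase subunit, with 749 and 594 counts, a log2 ratio of -0.36 (-0.51 to -0.20).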
